A study of Saccharomyces cerevisiae with 4 samples.

Results

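The small ribosomal subunit of budding yeast (Saccharomyces cerevisiae) is built on a single ribosomal RNA and a set of proteins whose genes are named RPS. The members described here are the genes whose symbol in the platform annotation is RPS followed by digits and an optional A or B, 55 of the 5583 named genes on the arrays. The reference gene table (RefSeq, assembly R64) holds 56 such genes, in 24 pairs of A and B copies and 8 single-copy genes, and 1 of them has no spot under its symbol. On each of the 4 two-channel arrays, RNA brought down with zzMex67 was compared with RNA brought down by zz, the tag without Mex67. The arrays form 1 group. Replicate 1 was measured on a first platform and replicates 2, 3 and 4 on a second. The labels give no strain, allele, promoter, growth condition or culture, so the replicates may be technical, and limma's p-values measure only the spread between these arrays.

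Mex67 is the main export receptor for messenger RNA in yeast and moves RNA-protein particles through the nuclear pore. The zz tag is an immunoglobulin-binding module derived from protein A, and the precipitate of the tag alone measures what comes down without Mex67. Ribosomal protein genes are among the most strongly transcribed genes of growing yeast, they hold a large share of the introns of this intron-poor genome, and most were kept as 2 copies after the whole-genome duplication. The question of the comparison is how messenger RNAs of this family distribute between the precipitates.

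All values below are log2 ratios minus the median over the genes of the array, so that 0 is the middle gene of an array and 1 is 2-fold above it. A higher value is likely to mean a larger share with zzMex67 than with zz. The basis is that titles list zzMex67 first and that channel 1 carries it on replicates 1, 3 and 4. The files do not settle this direction. Replicate 2 carries zzMex67 in channel 2. Its ratios are therefore shown here after a change of sign, and each is the opposite in the deposited table. The title of replicate 2 also lists zzMex67 first. By title order its deposited ratios may thus need no turn, so the direction on replicate 2 is the least certain. A ratio cannot tell more RNA with zzMex67 apart from less RNA with the tag alone, and no array used here measured total RNA.

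The RPS genes had a measured ratio more often than genes in general. Replicate 1 had values for 54 of its 55 RPS genes (98.2%), against 84.1% of all named genes on that platform. Of the 54 RPS genes on the second platform, 17 (31.5%) had a value on replicate 2, 33 (61.1%) on replicate 3 and 32 (59.3%) on replicate 4, against 10.1%, 43.8% and 46.5% of all named genes. Genes of the large subunit shared this trait, with values for 100%, 38.5%, 65.4% and 57.7% of them on replicates 1 to 4. The reason why a spot is empty is not given in the sources used here. On the second platform 8 RPS genes had a value on all 3 arrays and 7 on none, among them RPS3, RPS4B, RPS19B, RPS23B, RPS26A and RPS27A. RPS14A was printed on the first platform alone.

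As a family, the RPS messenger RNAs had high ratios on replicate 1, ratios near or moderately above the middle gene on replicates 3 and 4, and ratios below it on replicate 2. The median of the RPS genes was 3.38 (SD over genes 1.43, n = 54) on replicate 1, or 10.4-fold above the array median. It was -1.85 (SD 1.57, n = 17) on replicate 2, -0.021 (SD 1.86, n = 33) on replicate 3 and 0.70 (SD 1.55, n = 32) on replicate 4. On replicate 1, 51 of the 54 RPS genes lay above the array median, 49 of them by 2-fold or more, where 50% and 26% of all its genes did so. On replicate 2, 3 of 17 lay above the median (50% of all genes) and 12 were at least 2-fold below it (29.2% of all genes). With the deposited sign 14 of the 17 lay above it and the median was 1.85. On replicate 3, 16 of 33 lay above the median (50% of all genes), 10 at least 2-fold above it (28.9% of all genes) and 8 at least 2-fold below it (21.9% of all genes). The share above the median on replicate 3 was therefore that of any gene. On replicate 4 the counts were 19 of 32 above the median (50% of all genes), 12 at least 2-fold above (22.5% of all genes) and 4 at least 2-fold below (17.4% of all genes).

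Ratios also moved with the position of the spot, whose part in these medians was not tested beyond the centring given here. Medians of runs of 400 neighbouring spots ranged between -3.31 and 1.59 on replicate 2 and between -2.003 and 2.21 on replicate 3, and between -1.79 and 1.18 on replicate 1 and -0.72 and 1.71 on replicate 4. After each run was centred, the RPS median was 3.08 on replicate 1, -0.78 on replicate 2, 0.51 on replicate 3 and 0.083 on replicate 4. Replicates 3 and 4 thus changed places in order, while replicate 1 stayed far above the others.

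**Figure D1:**
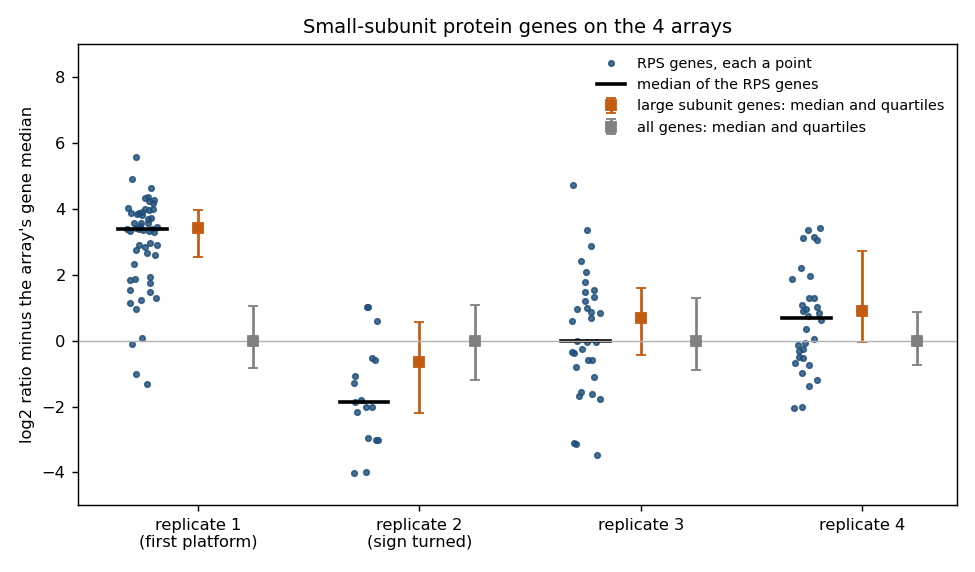
Log2 ratio minus the array's gene median (vertical axis) for each RPS gene with a value (points; bar, their median), beside the median and quartiles of the large subunit genes and of all genes, on replicates 1 to 4 (horizontal axis). The RPS medians are 3.38, -1.85, -0.021 and 0.70, and the large subunit medians 3.42, -0.65, 0.70 and 0.91.

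The large subunit genes (RPL and RPP symbols) had medians of 3.42 (n = 80), -0.65 (n = 30), 0.70 (n = 51) and 0.91 (n = 45) on replicates 1 to 4. The RPS median minus the large subunit median was -0.037, -1.20, -0.72 and -0.21, so the 2 subunits had close medians on replicate 1, and the RPS median was the lower on each array of the second platform. On replicate 3 the share of genes above the array median was 48.5% for the RPS genes and 68.6% for the large subunit genes. With runs centred the RPS medians were also the lower on each array, against 3.37, -0.11, 0.62 and 1.05 for the large subunit. With the deposited sign of replicate 2 the order turns there, with 1.85 for the RPS genes and 0.65 for the large subunit. These differences are descriptions of single arrays and carry no test.

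No RPS gene passed limma's test on the second platform. The test covered the 135 genes with a value on replicates 2, 3 and 4, of which 0 (0%) had an adjusted p under 0.05 and 6 (4.44%) an unadjusted p under 0.05. Of the 8 RPS genes among them, 0 passed, and 0 had an unadjusted p under 0.05, with adjusted p-values in limma between 0.6998 and 0.991. The median of their 8 mean ratios was 0.12, beside 0.64 over all 135 genes and 0.68 over the 21 large subunit genes tested. The same 8 genes also had a value on replicate 1.

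RPS24B (YIL069C) had the highest mean of the 8. It encodes, like RPS24A (YER074W), a protein of the subunit's body. RPS24B had 2.90 on replicate 1, -2.002 on replicate 2, 2.40 on replicate 3 and 3.07 on replicate 4, so replicate 2 stood alone below the others. Its mean over replicates 2, 3 and 4 was 1.16 ± 2.76 (SD, n = 3; limma, adjusted p = 0.750). The mean was 0.20 without replicate 4, 0.53 without replicate 3 and 2.74 without replicate 2. The first place went to RPS28B without replicate 4 (1.14) and with a dye term (0.69, against 0.37 for RPS24B), and to RPS24A without replicate 3 (0.57). RPS24A had 3.97, -2.02, 0.86 and 3.16 on replicates 1 to 4, with replicate 2 again the low array, and a mean of 0.66 ± 2.59 (SD, n = 3; limma, adjusted p = 0.897). RPS28B (YLR264W) encodes a small head protein that in yeast binds its own messenger RNA and directs its decay. It had 1.75, -0.60, 2.88 and 1.09 on replicates 1 to 4, and a mean of 1.12 ± 1.74 on the second platform (SD, n = 3; limma, adjusted p = 0.750).

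RPS17A (YML024W) had the lowest mean. Its intron, under the older name RP51A, is a standard substrate in yeast splicing work. The gene had 3.99 on replicate 1, -1.81 on replicate 2, -3.47 on replicate 3 and -0.97 on replicate 4. It was thus among the high genes of replicate 1 (rank 121 of 4409) and below the median on each other array, and its mean over replicates 2, 3 and 4 was -2.08 ± 1.27 (SD, n = 3; limma, adjusted p = 0.6998). Of the 8 genes it was the only one with a single sign on replicates 2, 3 and 4. Over the 135 genes, 4 (2.96%) lay below the median on all 3 arrays and 34 (25.2%) above it, beside 1 and 0 of the 8 RPS genes. With replicate 2 as deposited, RPS16A, RPS24A, RPS24B and RPS28B lay above the median on all 3 arrays, 4 of the 8, where 40 of the 135 genes did (29.6%).

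The other 4 had means close to the array median, each with both signs among replicates 2, 3 and 4. RPS6B (YBR181C) encodes the protein whose tail is phosphorylated downstream of the TOR kinase. It had 1.54, 1.03, 0.99 and -1.37 on replicates 1 to 4, replicate 4 being the low array, and a mean of 0.22 ± 1.38 (SD, n = 3; limma, adjusted p = 0.965). RPS16A (YMR143W), whose product contacts the transfer RNA from the head, had 3.35, -2.18, 0.96 and 0.90 and a mean of -0.11 ± 1.80 (SD, n = 3; limma, adjusted p = 0.965). RPS21A (YKR057W) had 3.83, -1.27, -0.57 and 1.29, and RPS21B (YJL136C) had 2.60, -0.54, -0.021 and 0.64. Their means were -0.18 ± 1.32 and 0.027 ± 0.59 (SD, n = 3; limma, adjusted p = 0.965 and 0.991).

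**Figure D2:**
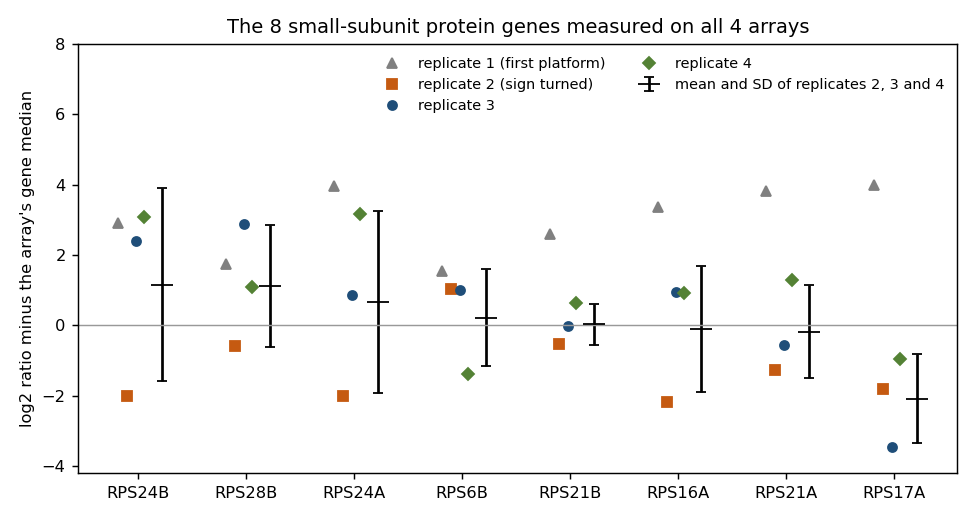
Log2 ratio minus the array's gene median (vertical axis) of the 8 RPS genes with a value on all 4 arrays (genes along the horizontal axis), with a symbol for each array and the mean and SD of replicates 2, 3 and 4. Means run between 1.16 for RPS24B and -2.08 for RPS17A, and all 8 genes lie above 0 on replicate 1.

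Joining the tables by gene gave 19 RPS genes with values on replicates 1, 3 and 4, the arrays of a single channel order. Of these, 7 lay above the median on all 3 arrays, or 36.8%, beside 139 of all 725 such genes (19.2%) and 16 of 30 large subunit genes (53.3%), and 0 lay below it on all 3 (9.24% of all such genes). The 7 were RPS1A, RPS12, RPS16A, RPS24A, RPS24B, RPS28B and RPS31. These 7 are also the RPS genes above the median on both replicates 3 and 4, where 318 of 923 genes (34.5%) were, so replicate 1 removed none of them. With runs centred, a comparison added after these values were seen, 9 of the 19 lay above on all 3 arrays (47.4%), beside 140 of the 725 genes (19.3%). RPS31 then had -0.44 on replicate 3 and left the list, and RPS1B, RPS21B and RPS30B joined it. RPS17A and RPS30A lay below the median on both (16% of the 923 genes).

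RPS1A (YLR441C) encodes a protein at the exit of the messenger RNA channel and had 5.58, 1.48 and 3.36 on replicates 1, 3 and 4, with rank 3 of 4409 genes on replicate 1 and rank 35 of 2421 on replicate 4. Its mean over these 3 arrays was 3.47 ± 2.05 (SD, n = 3; limma, adjusted p = 0.386), the highest of the 19. RPS31 (YLR167W), whose product is made as a fusion with ubiquitin, had 4.19, 1.79 and 1.96 and a mean of 2.65 ± 1.34 (SD, n = 3; limma, adjusted p = 0.386). RPS12 (YOR369C), a head protein gene, had 3.82, 0.59 and 3.11, replicate 3 being the low array, and a mean of 2.51 ± 1.70 (SD, n = 3; limma, adjusted p = 0.394). In this joined fit limma called 0 of 725 genes (0%) and 0 of the 19 RPS genes. At an unadjusted p under 0.05 in limma the counts were 8 of the 19 RPS genes and 65 of all 725 genes (8.97%). On replicates 3 and 4 alone they were 1 of 19 RPS genes and 53 of 923 genes. The joined fit adds replicate 1, where 51 of the 54 RPS genes lay above the array median. The tables come from different platforms, so a level set across them is not on a shared scale.

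The single-copy genes have no near-identical partner. Their SD over genes was 2.16 on replicate 1 (n = 7), against 1.30 for the A and 1.36 for the B copies, and 0.98 on replicate 4 (n = 4), against 1.62 and 1.54. RPS3 (YNL178W), at the entry of the messenger RNA channel, had a value on replicate 1 alone, 3.99. RPS2 (YGL123W), a protein of the same entry tunnel that bears on decoding accuracy, had 2.89, -1.85 and 0.84 on replicates 1, 2 and 3. RPS15 (YOL040C), a head protein needed to export the small subunit itself from the nucleus, had 3.87, -3.13 and 0.85 on replicates 1, 3 and 4. RPS15 was therefore near the top of replicate 1 and had the second-lowest RPS value of replicate 3, where a single spot carried it. After run centring RPS15 had -1.35 on replicate 3 and was not among the 3 lowest. RPS13 (YDR064W), a body protein gene, had -0.10 and -1.56 on replicates 1 and 3. RPS20 (YHL015W), a head protein gene, had -0.9997 and 1.31 on replicates 1 and 4. RPS13, RPS20 and RPS27B were the 3 RPS genes below the median on replicate 1, though RPS13 had 0.81 there after run centring.

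Few genes stood at the same end of the family on more than 1 array. RPS1A was among the 3 highest on replicates 1 and 4, and RPS16B among the 3 lowest on replicates 2 and 4, while RPS6B was among the highest on replicate 2 and the lowest on replicate 4. Each order on replicate 2 is the reverse as deposited, with RPS29A (4.01) and RPS16B (3.98) at the top there and RPS6B (-1.03) at the low end. On replicate 1 the 3 highest included RPS1A (5.58) and RPS4B (4.63), both on the body and platform list, and the lowest RPS27B (-1.30), RPS20 and RPS13. On replicate 2 the 3 highest included RPS6B (1.03) and RPS25A (0.60), and the lowest RPS29A (-4.01), RPS16B (-3.98) and RPS29B (-3.03). RPS6B and RPS29A each rested on a single spot there. After run centring RPS16B had -0.73 and RPS29B -0.11 on replicate 2, and neither was among the 3 lowest. On replicate 3 the highest were RPS14B (4.73), RPS22A (3.35) and RPS28B, and the lowest RPS17A, RPS15 and RPS17B (-3.10). After run centring RPS22A had 1.12 and RPS15 -1.35 there. RPS29B (2.61) then took the place of RPS22A, and RPS15 was not among the 3 lowest. RPS14B encodes a platform protein that binds and represses the transcript of this same gene. It ranked 14 of 2280 genes on replicate 3, yet it had -0.54 on replicate 4. On replicate 4 the highest were RPS1B (3.43), RPS1A and RPS24A, and the lowest RPS19A (-2.05), RPS16B (-2.02) and RPS6B. After run centring RPS24A (2.21) and RPS6B (-0.86) left these places on replicate 4, as did RPS4B (4.21) and RPS13 (0.81) on replicate 1.

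The A and B copies encode proteins that are the same or nearly so, and their coding sequences are so alike that a probe may take up RNA of both copies. Both copies were measured on 23 pairs on replicate 1, 5 on replicate 2, 7 on replicate 3 and 10 on replicate 4. On replicates 1 to 4 they fell on the same side of the array median in 22 of 23, 5 of 5, 5 of 7 and 7 of 10 pairs. Nearly all RPS genes lay above it on replicate 1, and 14 of 17 lay below it on replicate 2. The median size of the A minus B difference was 1.04 on replicate 1, 0.98 on replicate 2, 0.76 on replicate 3 and 0.62 on replicate 4, or 2.05-fold, 1.97-fold, 1.69-fold and 1.54-fold. Over all other pairs of RPS genes it was 1.17, 1.65, 1.78 and 1.57 on the same arrays. On the second platform the median was thus smaller for copies of a protein than for other RPS genes, and on replicate 1 the 2 medians were close. After run centring the copies differed by 1.19, 0.88 and 0.58 on replicates 2, 3 and 4. The other pairs were not compared in that setting, so the contrast holds for values without run centring. Across pairs the correlation of A with B was -0.039 on replicate 1 (23 pairs, rho 0.0040) and 0.58 on replicate 4 (10 pairs, rho 0.62). It was 0.49 on replicate 2 (5 pairs, rho 0.80) and 0.42 on replicate 3 (7 pairs, rho 0.14). The points of a correlation share an array.

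The spots of a single gene give the yardstick for these differences. On the second platform all 54 RPS genes were printed as 2 spots, which carry neighbouring numbers. Where both spots had a value, their median difference was 0.13 (13 genes), 0.23 (28 genes) and 0.33 (20 genes) on replicates 2, 3 and 4. Between copies that both had 2 measured spots the median difference was 0.94 (4 pairs) and 0.76 (5 pairs) on replicates 2 and 3, larger than between spots, but 0.15 (6 pairs) on replicate 4, smaller than between spots. Over all genes with 2 measured spots it was 0.53, 0.48 and 0.41. Neighbouring spots share their position on the slide. On the first platform 11 RPS genes had 2 measured spots, with a median difference of 0.81, the same as over all 693 such genes (0.81). The spots of RPS0B there were at -1.55 and 5.27, a difference of 6.82 that is the largest of the 693 genes, and those of RPS26A at -0.64 and 3.24. The replicate 1 values of RPS0B (1.86) and RPS26A (1.30) are therefore means of spots that disagree. Another 43 RPS genes rested on 1 spot on replicate 1, as did 4, 5 and 12 on replicates 2, 3 and 4.

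**Figure D3:**
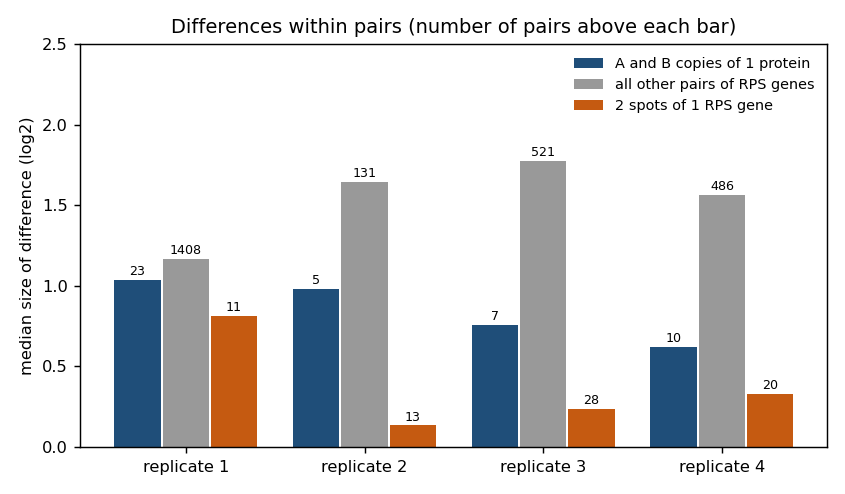
Median size of the log2 difference (vertical axis) between A and B copies, between all other pairs of RPS genes, and between the 2 spots of an RPS gene, by array (horizontal axis), with the number of pairs above each bar. On replicates 2, 3 and 4 the copies (0.98, 0.76 and 0.62) lie between the spots of a gene and the other pairs, but over the 6 pairs with 2 measured spots for each copy the copies on replicate 4 differ by 0.15, below the 0.33 between spots.

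Both copies were measured together on 2 or more arrays in 14 pairs. The same copy was higher each time in 7 of these, and all 7 were among the 8 pairs measured together on exactly 2 arrays, while 0 of the 6 pairs measured on 3 or 4 arrays kept an order. The A copy was higher each time for RPS0, RPS6 and RPS22, and the B copy for RPS7, RPS25, RPS28 and RPS29. Copies that do not differ also keep an order more easily over 2 arrays than over 4. On replicate 1 the differences of RPS7 (-0.084), RPS22 (0.45), RPS28 (-0.79) and RPS29 (-0.41) were smaller in size than the median between spots (0.81). So were those of RPS6 on replicate 3 (0.20 against 0.23) and RPS28 on replicate 4 (-0.13 against 0.33). With replicate 2 as deposited the order of the RPS29 copies is not kept, which leaves 6 of the 14. After run centring, the RPS7 order turned on replicate 1 (3.18 for A and 2.44 for B). The RPS28 order turned on replicate 4 (1.03 for A and 0.51 for B). The A copy was then higher each time for RPS10, and for RPS1 on all 3 of its arrays. The kept orders thus depended on the processing. With at most 4 arrays an exact sign-flip test of a pair cannot reach 0.05, so no difference between copies was tested.

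RPS0A and RPS0B, whose product resembles the mammalian laminin receptor precursor, differed by 1.48 on replicate 1 (3.34 and 1.86) and by 1.12 on replicate 4 (1.88 and 0.76). The RPS0B value on replicate 1 is the mean of spots at -1.55 and 5.27. These lie on either side of RPS0A, so the order of the copies there is uncertain. RPS0B also had -1.76 on replicate 3. RPS6A had 4.27 and 1.20 on replicates 1 and 3, against 1.54 and 0.99 for RPS6B, so the difference was 2.73 on replicate 1 and 0.20 on replicate 3. RPS22 had the widest gap on a shared array. RPS22A had 4.34 and 3.35 on replicates 1 and 3, and RPS22B, whose transcript also carries an intronic small nucleolar RNA, had 3.90 and -1.62, a difference of 0.45 and 4.97. On replicate 3 RPS22A rested on a single spot, and with runs centred its value there was 1.12 and that of RPS22B -0.52. RPS22B had 1.03 on replicate 4.

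Among pairs with the B copy higher, RPS25, a head protein that some viral internal entry sites require, had 1.84 and -1.20 for A and 3.56 and -0.31 for B on replicates 1 and 4. RPS25A stood at 0.60 on replicate 2. RPS7A had 3.30 and -0.67 and RPS7B 3.38 and -0.083 on the same arrays, a difference of -0.084 and -0.58. RPS28A had 0.95 and 0.97, against 1.75 and 1.09 for RPS28B. RPS29 encodes a small zinc-binding head protein. RPS29A had 1.93 and -4.01 on replicates 1 and 2, and RPS29B 2.33 and -3.03, and both copies were thus at the low end of replicate 2. After run centring RPS29A had -2.72 there, but RPS29B had -0.11, near the array median. RPS29A had -0.50 on replicate 4, and RPS29B 2.09 on replicate 3.

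Of the pairs with no kept order, RPS24 and RPS21 were measured together on all 4 arrays. The RPS24 copies differed by 1.06, -0.019, -1.54 and 0.090 (A minus B, replicates 1 to 4), so they were nearly equal on replicates 2 and 4, and their mean difference was -0.10 ± 1.08 (SD, n = 4). After run centring they were further apart there, with -1.70 for A and -1.20 for B on replicate 2, and 2.21 and 3.38 on replicate 4. The RPS21 copies differed by 1.22, -0.74, -0.55 and 0.66, with a mean of 0.15 ± 0.95 (SD, n = 4). RPS1B had 3.39, -0.037 and 3.43 on replicates 1, 3 and 4, so RPS1A was higher by 2.19 and 1.51 on replicates 1 and 3 and level with it on replicate 4 (-0.066). RPS16B had 3.58, -3.98 and -2.02 on replicates 1, 2 and 4. RPS16A differed from it by -0.23, 1.80 and 2.92, and the copies lay on opposite sides of the median on replicate 4. The order on replicate 2 turned with runs centred, to -1.66 for RPS16A and -0.73 for RPS16B. RPS17B had 2.95, -2.95 and -3.10 on replicates 1, 2 and 3, so both copies of this gene were low on replicates 2 and 3, with differences of 1.14 and -0.37.

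RPS30A had 3.69, -0.055 and -0.74 on replicates 1, 3 and 4, and RPS30B 4.34, -0.81 and 2.21, an order that turned between replicates 3 and 4. RPS10A, a head protein gene, had 3.38, 1.55 and -0.14 on replicates 1, 3 and 4, and RPS10B 2.84 and 0.036 on replicates 1 and 4.

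**Figure D4:**
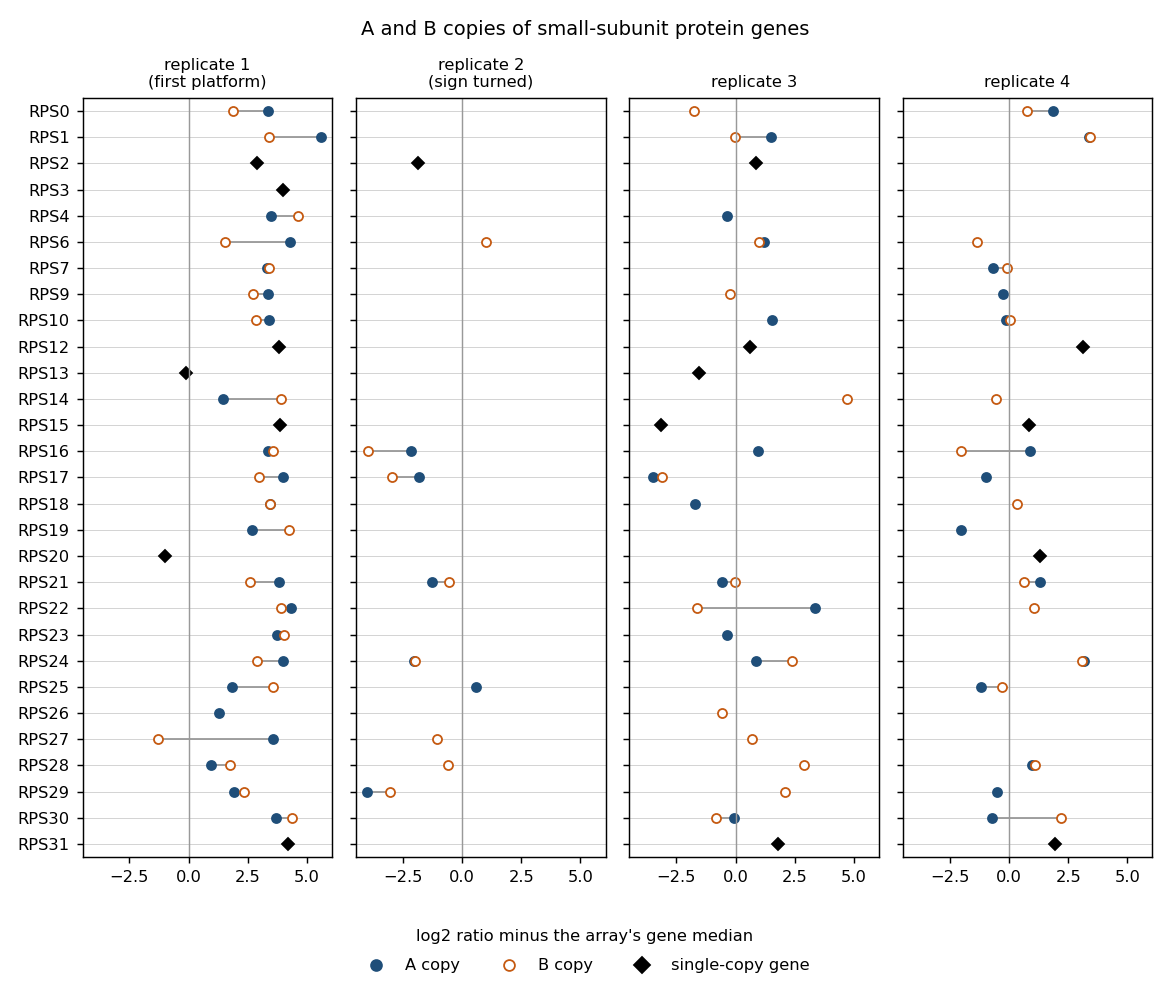
Log2 ratio minus the array's gene median (horizontal axis) of the A copy, the B copy or the single-copy gene of the small-subunit proteins named here (rows), with a panel for each array and a line joining copies measured on the same array. On replicate 1 most values lie between 1 and 5, while the other panels spread to both sides of 0.

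A further 9 pairs were measured together on replicate 1 alone, of which 7 are given. The gaps there were wide for RPS27 (3.56 for A and -1.30 for B), RPS14 (1.46 for A and 3.88 for B) and RPS19 (2.66 for A and 4.22 for B). They were narrow for RPS18 (3.45 and 3.42) and RPS23 (3.71 and 4.03), and RPS4 (3.48 and 4.63) and RPS9 (3.33 and 2.74) lay between. After run centring RPS18 had 4.69 for A and 2.79 for B, wider apart than RPS14 (2.70 and 3.89) and RPS19 (2.27 and 3.95). The RPS9 order turned (3.06 and 3.83), while RPS27 stayed wide (3.63 and -1.72). This sorting thus depended on the processing. On replicate 1, 0 pairs had 2 measured spots for each copy. The RPS23 protein sits at the decoding centre, and RPS19 is the yeast counterpart of a human gene mutated in Diamond-Blackfan anaemia. On the second platform these pairs were measured as single copies. RPS27B had -1.07 and 0.68 on replicates 2 and 3. RPS18A had -1.69, RPS23A -0.35, RPS4A -0.38 and RPS9B -0.24 on replicate 3, and RPS18B 0.36 and RPS9A -0.24 on replicate 4. The RPS26 copies, at the exit of the messenger RNA channel, were on no array together: RPS26B had -0.58 on replicate 3, and its spot was empty on replicate 1.

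By place in the subunit, neither the head nor the body and platform had the higher median throughout. The lists hold 21 head genes and 34 body and platform genes and come from background knowledge, not from a file. On replicate 1 the medians were 3.38 (21 genes) and 3.38 (33 genes). Head minus body and platform was -1.30 on replicate 2 (8 and 9 genes), 0.81 on replicate 3 (10 and 23 genes) and -0.70 on replicate 4 (16 and 16 genes).

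Genes with an intron in the coding sequence had the lower median on each array of the second platform. The list comes from background knowledge, not from a file, and holds 36 of the 55 RPS genes. On replicate 3 the medians were -0.30 (SD 1.82, n = 22) with and 1.31 (SD 1.79, n = 11) without an intron. There 8 of 22 against 8 of 11 lay above the array median (50% of all genes). After run centring RPS9B (0.078), RPS21B (0.15), RPS23A (0.51), RPS30A (1.16) and RPS30B (0.28), all with an intron, lay above it on replicate 3. Without an intron, RPS1B (0.46) then moved above it and RPS31 (-0.44) below it. On replicate 4 the medians were 0.036 (SD 1.46, n = 21) and 1.09 (SD 1.58, n = 11), with 11 of 21 against 8 of 11 above the array median (50% of all genes). On replicate 2 they were -2.002 (n = 11) and -1.22 (n = 6), an order that turns with the deposited sign, and on replicate 1 they were 3.38 (n = 36) and 3.14 (n = 18). The difference between the medians was -1.61 and -1.06 on replicates 3 and 4 and was not tested. The medians of the lists were not compared with runs centred, so their order is given for values without run centring. Among those without an intron, RPS1A, RPS12, RPS28B and RPS31 lay above the median on replicates 1, 3 and 4, and so did RPS16A, RPS24A and RPS24B among those with an intron.

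The other genes of the pathway did not share the high ratios of replicate 1, apart from ASC1 and the large subunit. ASC1 (YMR116C) encodes a scaffold protein bound to the head of the small subunit and had 3.20, 1.33, 1.57 and 2.03 on replicates 1 to 4. It lay above the median on all 4 arrays, as did 21 of 119 genes (17.6%) and 0 of the 8 RPS genes, of which 0 also lay below it on all 4 (1.68% of genes). Its mean on the second platform was 1.64 ± 0.36 (SD, n = 3; limma, adjusted p = 0.6998). With replicate 2 as deposited, ASC1 had -1.33 there and a mean of 0.76 ± 1.82 (SD, n = 3; limma, adjusted p = 0.798). Small-subunit assembly genes had medians of -0.33 (10 of 27 above the array median), 2.01 (4 of 4), -0.83 (4 of 16) and 0.14 (9 of 17) on replicates 1 to 4. As deposited, the median of replicate 2 was -2.01, with 0 of 4 above. Of the 7 transcription factor genes that act on ribosomal protein genes, 5, 1, 1 and 4 were measured, with medians of 0.12, 0.21, 0.094 and 0.71. In the joined fit limma called 0 of 6 assembly genes, 0 of 1 transcription factor genes and 0 of 30 large subunit genes.

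The order of genes was hardly shared between arrays, for the RPS genes as for all genes. Over the 19 RPS genes measured on replicates 3 and 4, Pearson's r was 0.13 and Spearman's rho 0.14, beside -0.018 and -0.013 over all 923 such genes. Over the 32 genes shared by replicates 1 and 3 they were 0.041 and 0.025, beside 0.060 and 0.061 over all genes, and over the 32 shared by replicates 1 and 4 they were 0.24 and 0.28, beside 0.084 and 0.084. Set against replicate 2, Pearson's r was -0.037 for replicate 1 (17 genes), 0.27 for replicate 3 (13 genes) and -0.044 for replicate 4 (11 genes), and Spearman's rho -0.051, 0.11 and -0.15. Over all genes r was -0.029, 0.012 and -0.11. These last signs turn with the sign of replicate 2. Genes are not independent replicates, so no p is given. On replicates 3 and 4 the RPS genes lay on the same side of the median for 9 of 19 genes (47.4%), as did 466 of all 923 genes (50.5%).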

How the data were processed

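The deposited values are log10 ratios between the channels of an array. No source names the base, and base 10 was inferred: raised as powers of 10, 0.345%, 4.68%, 15.6% and 13.3% of spots on replicates 1 to 4 gave simple fractions (denominator up to 50, tolerance 2e-08), against 0%, 0%, 0.130% and 0.0222% as powers of 2. Support is weakest on replicate 1, where 0 of 65 RPS spots gave such a fraction. What the authors did before they deposited these log10 ratios (dyes, numerator, background correction, normalization, reason for empty spots) is not given in the sources used here. Nor is a genome build, so no coordinates are printed. The files hold no intensities.

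Values were multiplied up to log2, the spots of a gene averaged, and each array's gene median subtracted (Python 3.11.15, pandas 2.3.3). The sign of replicate 2 was then turned to follow its channel labels. Symbols came from the platform annotation. All 55 members were matched by gene identifier to the RefSeq table (assembly R64), with the same symbol. A repeated row without a value was dropped.

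Limma 3.58.1 (R 4.3.3; lmFit with an intercept, eBayes) tested every gene measured on replicates 2, 3 and 4. P-values were adjusted over all genes tested (Benjamini-Hochberg, threshold 0.05). It tests a gene's mean against the array medians. The code was tested on simulated data. List summaries and copy differences carry no test. Alternatives were the sign of replicate 2, the arrays used, a dye term, no centring, centring of runs of 400 spots, scaling, the median of spots, a minimum of 2 spots, and each array left out. Run centring of the count above the median on replicates 1, 3 and 4 was added after seeing the data. Named were the members measured on all 3 or all 4 arrays, the 3 highest and lowest of each array, the copies measured together on 2 or more arrays, the single-copy genes and ASC1, except that some members enter the counts and medians but are not reported here by name. The remaining members and other genes were named after their values were seen. The members and lists were chosen with earlier results of these data known.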

Additional observations from a re-analysis of the deposited data

Results flagged for a closer look

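RPS24B on replicate 2, at -2.002, stood apart from its values on the other 3 arrays. The gap to the nearest array was 0.869 of the whole range of its 4 values, above Dixon's critical value for 4 samples. This comparison covered 9 items, the 8 RPS genes with a value on all 4 arrays and the RPS median, and chance marks about 5% of such groups. With the deposited sign of replicate 2 the share was 0.376, and no array of RPS24B stood apart.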

How the results depend on the processing

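Limma called 0 genes in each of the 13 alternatives, with 3 to 65 genes at an unadjusted p under 0.05. With replicate 2 as deposited, the RPS median there was 1.85, with 14 of 17 genes above the array median, a change made by the sign itself. With runs centred, the RPS median of replicate 3 was 0.51, and the copies differed by 1.24 on replicate 1 and 1.19 on replicate 2. With at least 2 spots, 1 of 13 RPS genes lay above the median on replicate 2, and the copies on replicate 4 differed by 0.15 over 6 pairs. Without centring, 31 of 32 RPS genes lay above 0 on replicate 4, as did 96.2% of all genes. For these values under run centring and the spot minimum the cause was not tested.

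No mean of the 8 genes passed the test under any alternative, and the means near 0 changed sign. RPS16A had 1.35 with replicate 2 as deposited, 0.49 without centring, 0.058 at a common spread, 1.74 on replicates 1, 3 and 4, and 0.76 on all 4. RPS21A had 0.66, 0.41, 0.083 with runs centred, and 1.52 and 0.82 on those 2 sets of arrays. RPS21B had -0.39 with runs centred, -0.14 with 2 spots and -0.11 with a dye term. RPS24A had -0.0067 with a dye term, and RPS6B -0.47 with replicate 2 as deposited. With 1 array left out, the means ran between -0.64 and 0.93 for RPS16A, -0.92 and 0.36 for RPS21A, -0.28 and 0.31 for RPS21B, -0.58 and 2.01 for RPS24A, -0.19 and 1.01 for RPS6B, 0.20 and 2.74 for RPS24B, 0.25 and 1.99 for RPS28B, and -2.64 and -1.39 for RPS17A, which had -0.15 on replicates 1, 3 and 4. Counting each of the 8 genes in each alternative where it was tested, 22 means changed sign and 79 did not. No paired analysis was possible because the arrays form 1 group. The number of arrays limits the precision, and empty spots leave most RPS genes with values on at most 3 of them.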
